A study of Mus musculus with 13 samples.

Results

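This report is about 6 of the 13 libraries of a study of perivascular adipose tissue, the fat around blood vessels: 3 from mice that received splenocytes of diabetic Nlrp3 knockout donors (NTS-R) and 3 from mice that received splenocytes of non-diabetic Nlrp3 knockout donors (NS-R). The 6 were chosen by their sample titles, and the comparison covers every gene that passed a filter on low counts, which was 17270 of the 34013 genes in the table. By the study's design text, NTS-R and NS-R differ in donor type 2 diabetes and share the Nlrp3 knockout. The libraries also differ in tissue content and sex, as given below.

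The series measured polyadenylated RNA of the recipients' perivascular fat and asked how immune cells of diabetic donors act on that tissue. All mice were labelled C57BL/6, and both NTS-R and NS-R carry the genotype label Nlrp3 KO. The study's design text gives that genotype, like diabetes, to the donors, while the sample labels do not say whether donor or recipient is meant. The other 7 libraries are TS-R, recipients of splenocytes from diabetic donors with wild-type Nlrp3 (4 libraries), and WTS-R, recipients of splenocytes from wild-type donors (3 libraries). The labels do not say how diabetes was produced, how many cells were given, how long after transfer the fat was taken, or the age or sex of any mouse. RNA of the fat mixes the recipient's own cells with any donor cells that reached it, and these cannot be told apart. Nothing states that samples of a group came from separate animals, so p-values reflect only the spread among samples, which may be technical.

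Libraries held between 14216706 and 37011122 counts. Levels are given as CPM (counts scaled to library size), and the level that 3 counts make ranged from 0.0786 to 0.242 CPM over the 6 libraries. All 6 were fat: the adipokine gene Adipoq was at 1808, 1591 and 1253 CPM in NTS-R and at 1193, 1609 and 1089 CPM in NS-R, and Ucp1, the uncoupling protein of brown fat, lay between 1429 and 2085 CPM. All 6 also held cardiac muscle RNA. The 13 genes of its list together made 2293, 1531 and 3580 CPM in NTS-R and 2766, 1887 and 1958 CPM in NS-R. Some libraries held further tissue. Scgb1a1, the secretoglobin of airway club cells, was at 0.231, 0 and 0 CPM in NTS-R and at 2252, 4689 and 0 CPM in NS-R, so NS-R replicates 1 and 2 carried airway RNA and NS-R replicate 3 did not. NS-R replicate 3 was the only 1 of the 6 with Xist, the RNA of the inactive X chromosome, at 530.3 CPM, and its Y-linked Ddx3y was at 0 CPM, against 49.1 to 141 CPM in the other 5. Igha, the IgA heavy chain, was at 4.51, 338 and 372 CPM in NTS-R and at 1.68, 7.79 and 532 CPM in NS-R. The circadian gene Per2 was at 42.3, 106 and 127 CPM in NTS-R and at 6.36, 16.7 and 62.6 CPM in NS-R. Skeletal muscle RNA also varied: the 14 genes of its list together made 2369, 2967 and 509 CPM in NTS-R and 1232, 157 and 438 CPM in NS-R, and all 13 tested had a positive log2 fold change (median 1.68, 0 with an unadjusted p under 0.05). Airway content, muscle, sex, IgA and clock genes thus differed among the libraries. Airway content and clock genes partly followed the groups. Airway RNA lay almost wholly in NS-R replicates 1 and 2, and Per2 means were 91.6 CPM in NTS-R and 28.6 CPM in NS-R. The part of all these differences in the results that follow was not tested beyond the settings named beside them.

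**Figure D1:**
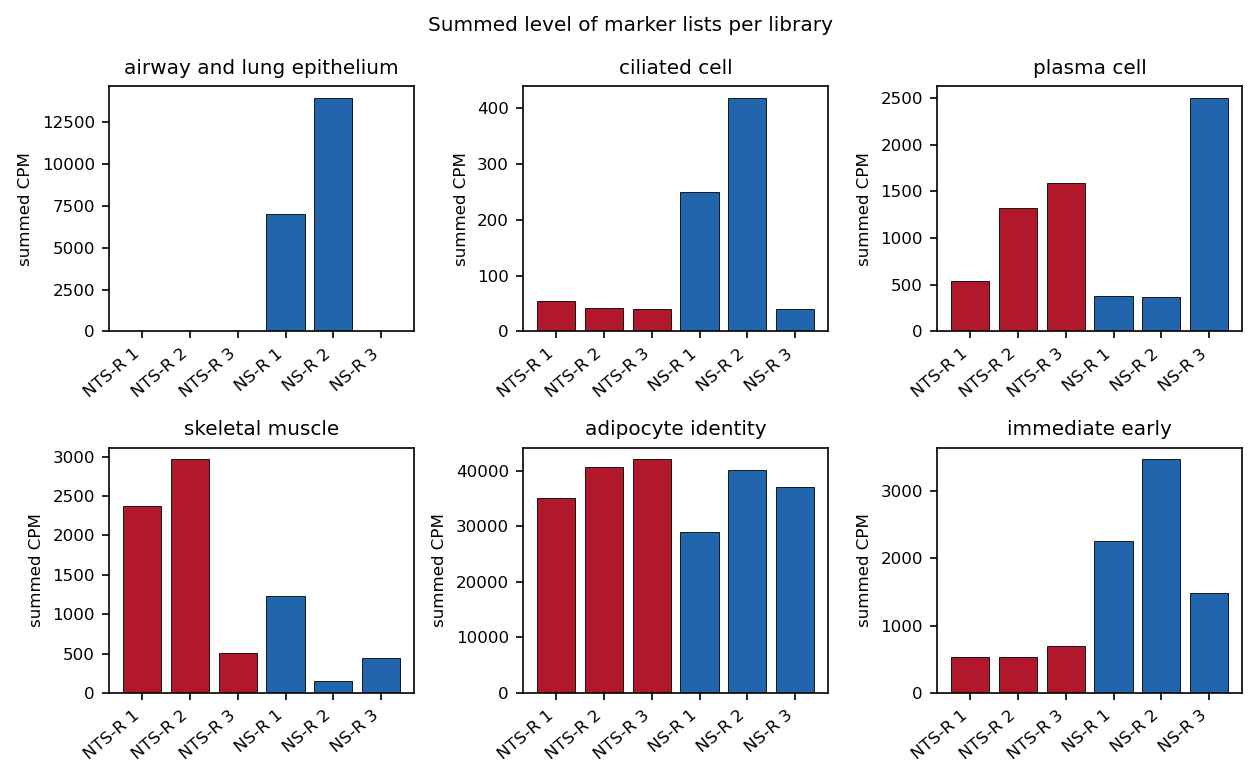
Summed CPM of 6 gene lists in each of the 3 NTS-R libraries (red) and the 3 NS-R libraries (blue), on linear axes that start at 0 and differ between panels. The airway list stood at 7029 and 13971 CPM in NS-R replicates 1 and 2 and at 5.24 to 7.93 CPM in the other 4 libraries, while the immediate early list was higher in all 3 NS-R libraries than in any NTS-R library.

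NLRP3 is the sensor of an inflammasome, a complex in macrophages and other myeloid cells that activates caspase-1, which in turn matures IL-1 beta and IL-18. Perivascular fat of rodents is brown-like around the thoracic aorta and releases factors that act on the vessel wall, and in diabetes it is known to become inflamed. Immediate early genes, which several results below concern, are switched on within minutes by growth factors, calcium, cyclic AMP, adrenergic input, stress or tissue handling, and many encode transcription factors of the EGR, AP-1 and NR4A families.

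No gene passed an FDR of 0.05 in the edgeR quasi-likelihood fit, in either direction (0% of 17270 genes), and the lowest FDR was 0.150. At an unadjusted p under 0.05, 216 genes lay higher in NTS-R (1.25%) and 883 lay lower (5.11%). The 3 NTS-R libraries lay wholly above the 3 NS-R libraries for 1214 genes (7.03%) and wholly below them for 1417 genes (8.20%). The median log2 fold change over all genes was -0.01. DESeq2 on the same libraries called 4 genes higher (0.0232%) and 204 lower (1.18%), limma with voom quality weights called 0 higher and 12 lower (0.0695%), and edgeR on the 6 libraries alone called 1 higher (0.00628%) and 4 lower (0.0251%) of 15923 genes. Without TS-R replicate 3, the library richest in lymph node RNA, edgeR called 0 genes higher and 1 lower, Jun (0.00593%). The 5 genes of the fit on 6 libraries were Fkbp5, higher in NTS-R, and Jun, Nr4a1, Egr3 and Egr2, lower in NTS-R. Counts also moved with the libraries and covariates in the edgeR fit. They were 7 higher and 556 lower without NS-R replicate 3, 33 and 725 with only libraries without Xist, and 1 and 131 with sex as a covariate. The settings on Xist and on sex also concerned TS-R replicate 3, which had Xist at 667 CPM. In those settings sex and the lymph node content of that library cannot be told apart. Calls therefore depended on the test and on which NS-R libraries entered it, and the genes below are described by their values in each library.

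**Figure D2:**
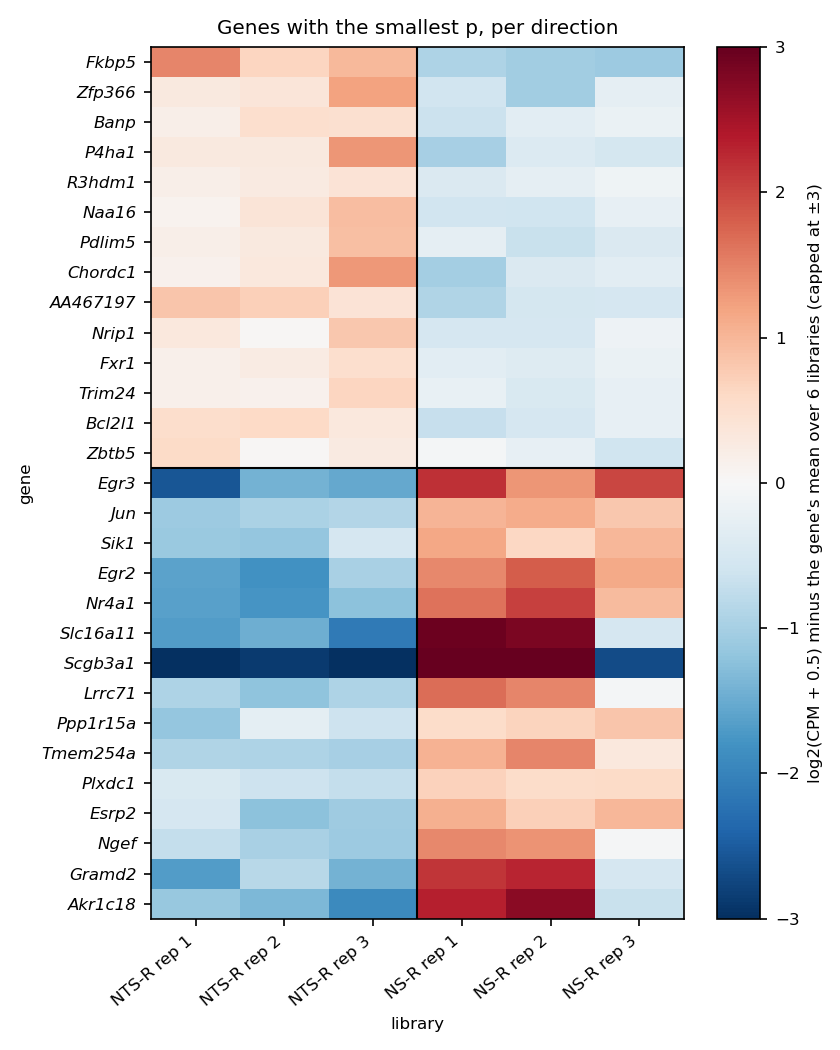
Level of genes from the 15 higher and 15 lower with the smallest unadjusted p (1 of the higher is not drawn) in each of the 6 libraries, as log2(CPM + 0.5) minus the gene's mean over the 6, with the colour capped at 3 either way. Egr3, Jun, Sik1, Egr2, Nr4a1 and Ppp1r15a were high in all 3 NS-R libraries, while Slc16a11, Scgb3a1, Lrrc71, Ngef, Gramd2 and Akr1c18 were high mainly in NS-R replicates 1 and 2.

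Immediate early genes lay lower in NTS-R as a group. All 17 members of the list were tested. None passed the FDR, 15 had an unadjusted p under 0.05 and a negative fold change, and 14 had all 3 NTS-R libraries below all 3 NS-R libraries, against 5.11% and 8.20% of all genes. The median log2 fold change of the list was -2.05, against -0.01 over all genes. Over 20 other settings this median ran from -2.46 to -1.36. The 17 genes together made 529, 531 and 698 CPM in NTS-R and 2264, 3473 and 1478 CPM in NS-R. The sum was above every NTS-R library in each NS-R library, including replicate 3, which had no Scgb1a1 and was the one with Xist. The part of airway content and sex in the difference was not tested beyond the settings given. With NS-R replicates 1 and 2 left out, the list's median was -1.36. In that fit the lone NS-R library was assumed to vary like the other groups.

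The upstream sequences of 3 members are shown because cyclic AMP and calcium signals act on such genes through the CREB family, whose core site TGACG can be searched for in the promoter. Each stretch is the 250 bases before the RefSeq transcription start (GRCm38.p6), written along the gene's strand. Capitals mark TGACG on either strand, so CGTCA is the same site read on the opposite strand. The windows are those of Nr4a1 (chr15:101266596-101266845, plus strand), Fos (chr12:85473640-85473889, plus strand) and Jun (chr4:95052223-95052472, minus strand).
Nr4a1: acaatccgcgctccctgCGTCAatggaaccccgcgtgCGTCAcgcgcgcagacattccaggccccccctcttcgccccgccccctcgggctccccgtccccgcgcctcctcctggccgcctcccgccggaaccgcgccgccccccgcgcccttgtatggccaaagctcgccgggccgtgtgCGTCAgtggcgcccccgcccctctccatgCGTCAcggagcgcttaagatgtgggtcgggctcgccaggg
Fos: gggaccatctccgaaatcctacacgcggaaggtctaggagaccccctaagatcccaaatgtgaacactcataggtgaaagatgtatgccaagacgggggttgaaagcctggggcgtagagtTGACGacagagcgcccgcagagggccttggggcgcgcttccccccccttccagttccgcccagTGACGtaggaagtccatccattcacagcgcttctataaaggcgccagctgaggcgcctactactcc
Jun: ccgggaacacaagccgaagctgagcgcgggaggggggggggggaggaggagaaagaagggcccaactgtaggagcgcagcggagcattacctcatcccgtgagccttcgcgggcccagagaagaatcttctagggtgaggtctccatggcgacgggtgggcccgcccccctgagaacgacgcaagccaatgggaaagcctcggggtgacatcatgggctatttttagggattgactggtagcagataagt
The core site occurred 4 times before Nr4a1 and 2 times before Fos, and the letters were not found in the Jun window. It also occurred 4 times before Nr4a2, whose groups did not overlap, and 4 times before Nr4a3, whose groups did. Egr3 and Ier2 had no promoter in the set searched, and Egr2 had 5 annotated starts, so these were left out. Egr1 was left out because it lies on a chromosome that the search of list members skipped. The promoters of all genes were not filtered by chromosome. The other 13 of the 17 list members had a single annotated start in the RefSeq table used and were searched. Of these 13, 9 held the core site, against 17.9% of 32536 promoters of the same length. The full palindrome TGACGTCA, which contains the core site, was in 2 of the 13 and in 1.56% of all promoters. The CArG box, the site of serum response factor, was in 1 of the 13 and in 1.48% of all promoters. Sites outside the 250 bases, and any before members that were not searched, were not counted. These matches are letters in a window and were not tested as sites. They describe the genes of a list of known immediate early genes, and no level in NTS-R or NS-R enters them.

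The EGR genes encode zinc finger transcription factors. Egr3 was at 0.809, 2.36 and 2.18 CPM in NTS-R and at 34.4, 18.8 and 30.3 CPM in NS-R (log2 fold change -3.98, SE 0.58, edgeR FDR 0.150). Egr2 was at 0.867, 0.686 and 1.61 CPM in NTS-R and at 10.8, 14.1 and 8.66 CPM in NS-R (log2 fold change -3.41, SE 0.55, edgeR FDR 0.150). For both genes the lowest NS-R library stood several times above the highest NTS-R library. Egr1 was at 33.4, 28.4 and 35.0 CPM in NTS-R and at 259, 336 and 81.3 CPM in NS-R (log2 fold change -2.80, SE 0.68). Its groups did not overlap either, but NS-R replicates 1 and 2 stood well above replicate 3.

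NR4A genes encode orphan nuclear receptors induced by cyclic AMP and calcium. Nr4a1 was at 54.3, 49.7 and 72.4 CPM in NTS-R and at 528, 709 and 328 CPM in NS-R (log2 fold change -3.15, SE 0.51, edgeR FDR 0.150). Nr4a2 was at 6.36, 6.79 and 10.5 CPM in NTS-R and at 35.4, 25.8 and 33.1 CPM in NS-R, without overlap. Nr4a3, from the same family, was an exception. It was at 19.2, 28.1 and 52.7 CPM in NTS-R and at 22.1, 30.5 and 34.0 CPM in NS-R, with overlapping groups. Sik1, a salt-inducible kinase and CREB target that restrains CREB coactivators, was at 39.0, 37.8 and 59.5 CPM in NTS-R and at 189, 131 and 171 CPM in NS-R (log2 fold change -1.85, SE 0.30, edgeR FDR 0.150). All 3 NS-R libraries were alike for Sik1 and lay above every NTS-R library.

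**Figure D3:**
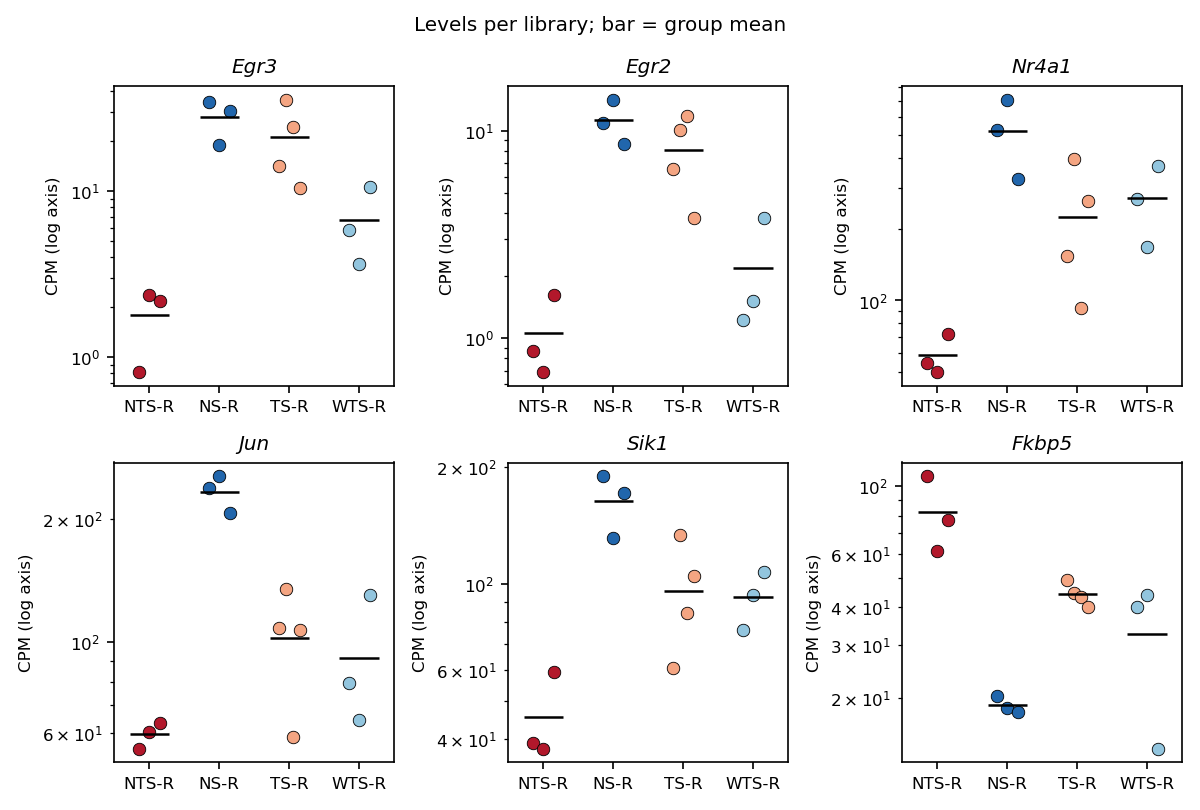
CPM of 6 genes in each library of the 4 groups, on log axes that differ between panels; points are libraries and bars are group means (3 NTS-R, 3 NS-R, 4 TS-R and 3 WTS-R libraries). For Egr3, Egr2, Nr4a1, Jun and Sik1 the NTS-R libraries lie below the NS-R libraries without overlap, and for Fkbp5 they lie above them.

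FOS and JUN proteins pair to form AP-1. Jun was at 54.8, 60.2 and 63.4 CPM in NTS-R and at 238, 255 and 207 CPM in NS-R, means of 59.5 ± 4.34 and 233 ± 24.3 CPM (SD, n = 3 each). Its log2 fold change was -1.97 (SE 0.31, edgeR FDR 0.150), and it passed an FDR of 0.05 in 9 of 20 other settings, more than any other gene given a fold change here. The spread within each group was narrow and the 2 groups lay far apart. Fosb was at 2.20, 3.97 and 2.58 CPM in NTS-R and at 16.9, 141 and 17.6 CPM in NS-R, with replicate 2 far above the other NS-R libraries. Fos was at 30.5, 21.1 and 40.2 CPM in NTS-R and at 127, 484 and 27.7 CPM in NS-R. Its groups overlapped, since NS-R replicate 3 lay within the NTS-R range, and its log2 fold change of -2.80 (SE 0.89) was 0.12 with NS-R replicates 1 and 2 left out. Junb (log2 fold change -2.05, SE 0.50) and Fosl2 (-1.48, SE 0.33) also had no overlap. Junb in NS-R replicate 3 was at 36.5 CPM, just above the 25.1 to 28.5 CPM of NTS-R, while Fosl2 was at 110 CPM there, against 29.7 to 49.3 CPM in NTS-R.

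Several early genes encode proteins that end or damp signalling. Ppp1r15a (outside the list of 17, like Sik1), the phosphatase subunit that reverses the integrated stress response, was at 16.9, 31.1 and 24.8 CPM in NTS-R and at 56.5, 61.3 and 68.9 CPM in NS-R (log2 fold change -1.36, SE 0.24, edgeR FDR 0.169). Dusp1, a phosphatase of MAP kinases, was at 107, 111 and 134 CPM in NTS-R and at 215, 388 and 226 CPM in NS-R. Zfp36, which promotes decay of cytokine mRNAs, was at 85.0, 69.9 and 91.7 CPM in NTS-R and at 179, 301 and 107 CPM in NS-R. Btg2, an antiproliferative gene, was at 34.5, 34.7 and 54.1 CPM in NTS-R and at 229, 266 and 72.6 CPM in NS-R. None of these 4 genes had overlapping groups, and for Zfp36 and Btg2 NS-R replicate 3 was the nearest to NTS-R. Atf3, a stress-induced transcription factor, differed in this respect, with 19.5, 25.4 and 19.8 CPM in NTS-R and 40.4, 69.4 and 95.5 CPM in NS-R, the highest value being that of NS-R replicate 3. Ier3 overlapped, with 4.57 to 17.7 CPM in NTS-R and 11.8 to 18.5 CPM in NS-R.

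In the opposite direction the gene with the smallest p was Fkbp5, the HSP90 co-chaperone that binds steroid receptors and is induced by glucocorticoids. It was at 108, 61.0 and 77.4 CPM in NTS-R and at 20.3, 18.6 and 18.1 CPM in NS-R (log2 fold change 2.11, SE 0.35, edgeR FDR 0.151). The NS-R libraries were nearly equal and every NTS-R library stood well above them. Over 20 settings the fold change ran from 1.87 to 2.29, passing an FDR of 0.05 in 7. Tsc22d3, which encodes the glucocorticoid-induced leucine zipper, was at 171, 145 and 131 CPM in NTS-R and at 55.8, 118 and 110 CPM in NS-R (log2 fold change 0.66, SE 0.28), also without overlap. The rest of the glucocorticoid list was mixed. Of its 15 members 2 lay higher and 1, Dusp1, lay lower at an unadjusted p under 0.05, beside 1.25% and 5.11% of all genes, and its median log2 fold change was 0.17. Fkbp5 and Tsc22d3 were the 2 higher genes.

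Heat shock chaperones lay on the higher side. All 13 had a positive log2 fold change, with a median of 0.78 that stayed positive in 20 other settings (0.38 to 0.97). Only Hsph1 had an unadjusted p under 0.05 (1.25% of all genes on that side), and 6 of the 13 had no overlap, against 7.03% of all genes. Hsph1, an HSP110 nucleotide exchange factor, was at 143, 198 and 368 CPM in NTS-R and at 24.2, 100.3 and 88.7 CPM in NS-R (log2 fold change 1.74, SE 0.72, edgeR FDR 0.695). Hspa8, the constitutive HSP70, was at 1580, 1713 and 1729 CPM in NTS-R and at 615, 1433 and 1178 CPM in NS-R. Hsp90aa1, the inducible HSP90, was at 263, 356 and 667 CPM in NTS-R and at 145, 272 and 266 CPM in NS-R. NS-R replicate 1 was the lowest of the 6 libraries for all 3 of these genes, and without it the list's median was 0.47. Reads of these chaperones can be shared with close copies, so their levels are less certain.

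Other genes higher in NTS-R without overlap were more modest. Chordc1, another HSP90 partner, was at 66.1, 75.5 and 150 CPM in NTS-R and at 29.7, 44.6 and 48.6 CPM in NS-R (log2 fold change 1.25, SE 0.37). Zfp366, a zinc finger corepressor of nuclear receptors, was at 40.5, 42.3 and 77.1 CPM in NTS-R and at 21.9, 15.7 and 27.3 CPM in NS-R (log2 fold change 1.30, SE 0.31). P4ha1, a prolyl hydroxylase of collagen, was at 76.9, 77.0 and 157 CPM in NTS-R and at 31.0, 46.9 and 43.3 CPM in NS-R (log2 fold change 1.36, SE 0.38). NTS-R replicate 3 was the highest library for these 3 genes. Bcl2l1, an inhibitor of apoptosis, was at 87.5, 92.5 and 76.0 CPM in NTS-R and at 37.5, 42.4 and 51.0 CPM in NS-R (log2 fold change 0.97, SE 0.30). Nrip1, a corepressor that restrains energy expenditure genes in fat, was at 41.9, 34.3 and 59.8 CPM in NTS-R and at 23.6, 23.6 and 30.2 CPM in NS-R. Banp, R3hdm1, Naa16, Pdlim5, AA467197, Fxr1, Trim24 and Zbtb5 were also among the 15, with log2 fold changes between 0.56 (R3hdm1) and 2.05 (AA467197).

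Contractile genes of vascular smooth muscle lay mostly lower in NTS-R, with a negative log2 fold change for 10 of 12. Their summed levels overlapped, at 959, 1243 and 1263 CPM in NTS-R and 1770, 1201 and 1353 CPM in NS-R. Of 12 tested, 5 had an unadjusted p under 0.05 (5.11% of all genes did, in this direction) and the same 5 had no overlap (8.20% of all genes), and the median log2 fold change was -0.59 (-0.82 to -0.23 over 20 settings, with -0.23 without NS-R replicate 1). Myh11, the smooth muscle myosin heavy chain, was at 59.4, 67.9 and 54.9 CPM in NTS-R and at 209, 93.0 and 108 CPM in NS-R (log2 fold change -1.17, SE 0.27, edgeR FDR 0.208). Cnn1, calponin, was at 10.8, 16.5 and 10.3 CPM in NTS-R and at 53.4, 52.4 and 16.7 CPM in NS-R (log2 fold change -1.71, SE 0.47). Acta2, smooth muscle actin, was at 118, 139 and 113 CPM in NTS-R and at 312, 239 and 165 CPM in NS-R (log2 fold change -0.96, SE 0.36). For these 3 genes NTS-R was even and NS-R uneven, and the groups did not overlap. The part of skeletal or cardiac muscle was not tested, and that of airway content and sex not beyond the 20 settings. With NS-R replicates 1 and 2 left out, the list's median was -0.44. In whole tissue, fewer cells of a type and less RNA per cell cannot be told apart.

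Of 22 matrix genes 21 had a negative fold change, with a median of -0.44, but 2 had an unadjusted p under 0.05, close to the 5.11% of all genes. That median was 0.12 with NS-R replicates 1 and 2 left out, so its direction rested on those libraries. Ccn1, a matricellular protein and immediate early gene outside the list above, was at 51.8, 56.4 and 61.2 CPM in NTS-R and at 249, 337 and 142 CPM in NS-R (log2 fold change -2.10, SE 0.50, edgeR FDR 0.208), without overlap. Its NS-R replicate 3 lay above every NTS-R library, unlike that of Col3a1, which was at 766, 298 and 438 CPM in NTS-R and at 1141, 1170 and 308 CPM in NS-R. Of 13 endothelial genes, Cldn5, a tight junction protein, alone had an unadjusted p under 0.05 (5.11% of all genes), with 65.3, 66.2 and 76.5 CPM in NTS-R and 146, 173 and 107 CPM in NS-R. Of 17 vasoactive genes 13 had a negative log2 fold change and 3 of these an unadjusted p under 0.05 (5.11% of all genes), including Nos2, the inducible nitric oxide synthase, at 7.69, 10.3 and 10.7 CPM in NTS-R and 13.7, 11.8 and 23.5 CPM in NS-R. Ptgs2, cyclooxygenase 2, was at 1.27, 0.534 and 0.968 CPM in NTS-R and at 3.95, 9.30 and 1.16 CPM in NS-R, overlapping in NS-R replicate 3.

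**Figure D4:**
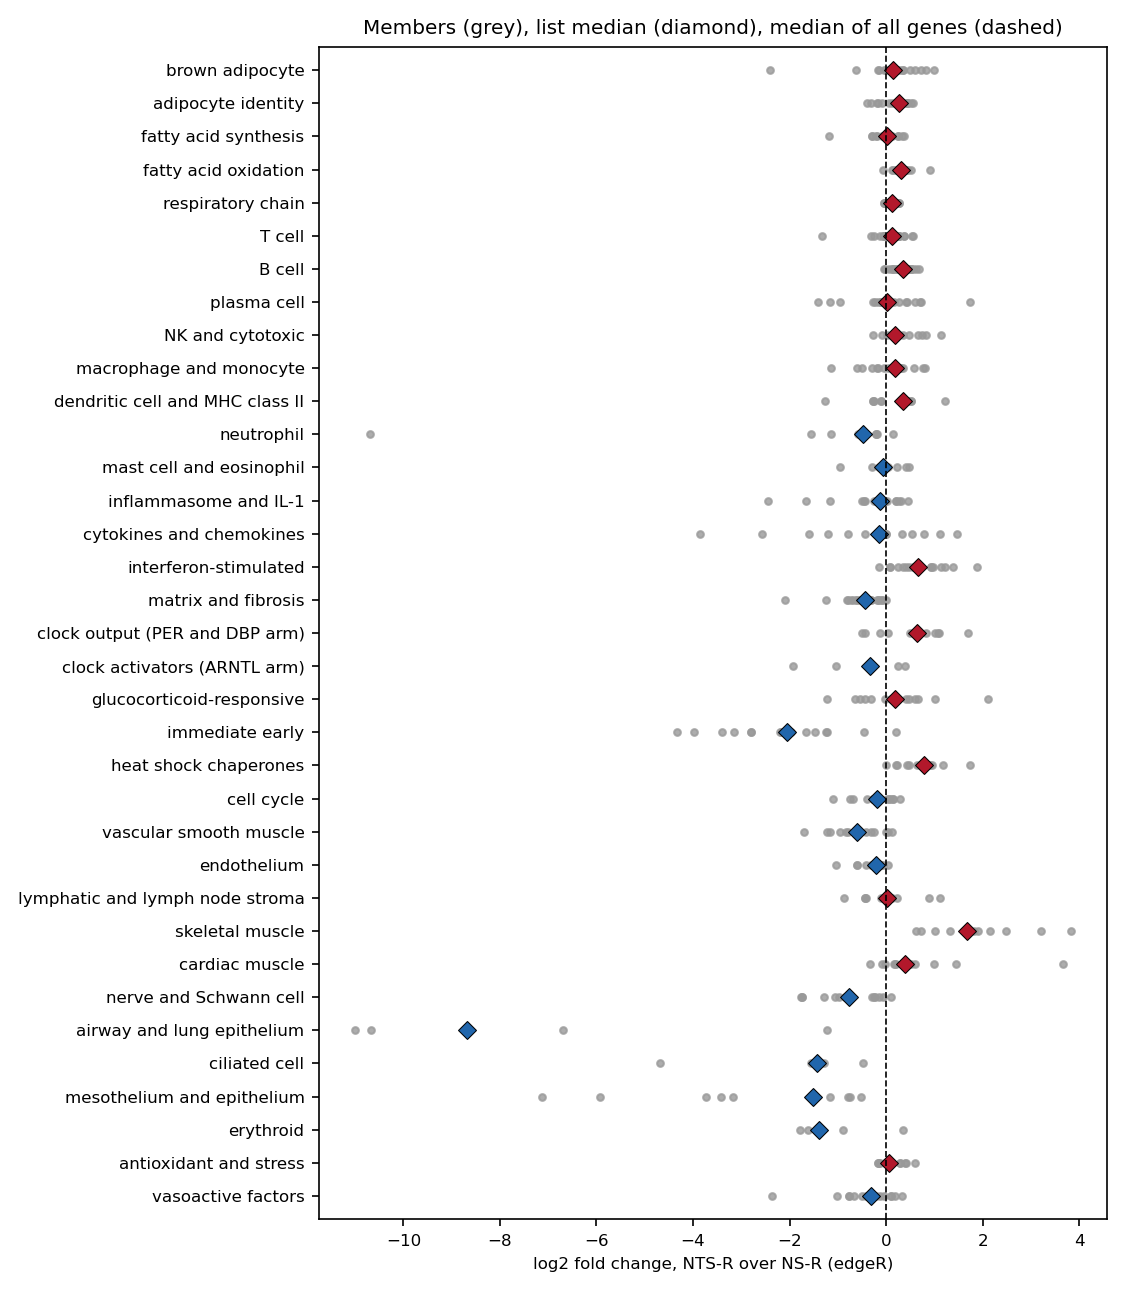
edgeR log2 fold changes, NTS-R over NS-R, of the tested members of each gene list (grey points), with the list's median as a diamond (red above 0, blue below 0) and the median of all genes as a dashed line. The immediate early list has a median of -2.05 and heat shock chaperones 0.78, and the airway list at -8.68 rests on NS-R replicates 1 and 2.

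The inflammasome genes of the fat, which the donors' genotype concerns, mostly overlapped between the groups. Nlrp3 itself was near the detection limit, at 1.21, 0.534 and 0.403 CPM in NTS-R and at 0.995, 0.462 and 1.57 CPM in NS-R (log2 fold change -0.45, SE 0.70, edgeR FDR 0.999). Both groups had knockout donors, so this comparison does not check the genotype, and RNA of recipient cells contributes to it. Of the 19 tested genes of the list, 2 had an unadjusted p under 0.05, both lower, beside 5.11% of all genes, and the median log2 fold change was -0.12. That count is too close to the share over all genes to be a result about the list. They were Il1b, the cytokine that the inflammasome matures, at 0.983, 0.610 and 0.645 CPM in NTS-R and 1.86, 3.18 and 2.11 CPM in NS-R (log2 fold change -1.65, SE 0.50, edgeR FDR 0.373), and Il18r1, a subunit of the IL-18 receptor. Il18r1 was at 2.02, 1.53 and 0.806 CPM in NTS-R and at 10.7, 11.0 and 2.25 CPM in NS-R. The groups did not overlap for Il1b or Il18r1. Il18r1 was high chiefly in the 2 airway-rich libraries, and its NS-R replicate 3 lay just above the highest NTS-R library. Casp1, which encodes caspase-1, was at 18.4, 9.84 and 14.1 CPM in NTS-R and at 9.95, 12.01 and 12.3 CPM in NS-R. Pycard, the adaptor, was at 4.33, 1.83 and 2.097 CPM in NTS-R and at 4.06, 4.97 and 2.79 CPM in NS-R.

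Among cytokines and chemokines, 3 of 20 tested had an unadjusted p under 0.05 in the lower direction, beside 5.11% of all genes, and the median was -0.14. Il6 was at 0.0578, 0.0763 and 0.0806 CPM in NTS-R, under the 3-count level of each library, and at 1.49, 1.501 and 0.273 CPM in NS-R. Cxcl2, a neutrophil attractant, was at 0.405, 0.610 and 0.242 CPM in NTS-R and at 0.628, 6.35 and 0.682 CPM in NS-R, so NS-R replicate 2 carried its difference. Interferon-stimulated genes had a positive median of 0.66 that rested on NTS-R replicate 1 and was -0.95 without it. Zbp1, a sensor of nucleic acids and member of that list, was at 100.01, 4.96 and 4.44 CPM in NTS-R and at 11.8, 8.08 and 9.95 CPM in NS-R.

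Lymphocyte genes did not separate the groups. Of 20 T cell genes 1 had an unadjusted p under 0.05 and the median log2 fold change was 0.12; of 17 B cell genes 0 did and the median was 0.35; of 18 plasma cell genes 1 did and the median was 0.02. These counts were near the 5.11% of all genes on the lower side. Cd3e, a chain of the T cell receptor complex, was at 1.27, 0.686 and 1.13 CPM in NTS-R and at 0.471, 0.520 and 2.32 CPM in NS-R. Cd79a, of the B cell receptor, was at 8.67, 2.06 and 3.63 CPM in NTS-R and at 3.40, 3.18 and 7.57 CPM in NS-R. Levels were low in both groups and the ranges overlapped. Glycam1, a marker of lymph node venules, was at most 0.116 CPM in NTS-R and 0.0682 CPM in NS-R, under 3 counts in each library. The 1 T cell gene was Cd247, the zeta chain, at 2.31, 4.12 and 1.77 CPM in NTS-R and at 7.62, 5.48 and 7.497 CPM in NS-R. Macrophage genes had a median of 0.17, and Mertk, the receptor that macrophages use to clear dying cells, was their only member with an unadjusted p under 0.05, at 26.3, 19.1 and 34.3 CPM in NTS-R and 16.4, 11.9 and 17.4 CPM in NS-R.

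The adipocytes' own genes lay slightly higher in NTS-R without passing any threshold. Of 18 adipocyte identity genes 0 had an unadjusted p under 0.05, yet 8 lay higher without overlap (7.03% of all genes did), and the median log2 fold change was 0.26. Plin1, which coats lipid droplets, was at 1199, 1361 and 1095 CPM in NTS-R and at 944, 934.5 and 813 CPM in NS-R. Cidec, a lipid droplet fusion protein, was at 972, 983 and 873 CPM in NTS-R and at 533, 780 and 615 CPM in NS-R. Cd36, a fatty acid transporter, was at 1606, 2061 and 2484 CPM in NTS-R and at 1350, 1461 and 1498 CPM in NS-R. Of 16 genes of fatty acid oxidation 15 had a positive fold change, 8 lay higher without overlap and the median was 0.31. Etfdh, which passes electrons from fatty acid oxidation to ubiquinone, was at 418, 486 and 476 CPM in NTS-R and at 294, 369 and 299 CPM in NS-R. Both medians turned negative with sex as a covariate (-0.09 and -0.07), and with the clock level as a covariate they were -0.0128 and 0.0613. The sex covariate marked NS-R replicate 3 and also TS-R replicate 3, whose sum of the adipocyte identity list was the lowest of all libraries (11914 CPM). Genes of brown fat did not separate the groups, with a median of 0.15 over 18 tested. Ucp1 was at 1541, 1682 and 2085 CPM in NTS-R and at 1429, 1808 and 1807 CPM in NS-R. Ebf2, a transcription factor of brown adipocyte precursors, was the only 1 of the 18 with an unadjusted p under 0.05, at 46.6, 68.0 and 83.9 CPM in NTS-R and at 41.8, 31.4 and 38.4 CPM in NS-R.

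Many genes of the lower side were highest in the airway-rich libraries. Of the 883 genes lower at an unadjusted p under 0.05, 652 (73.8%) had NS-R replicates 1 and 2 above NS-R replicate 3 and every NTS-R library, and for 133 (15.1%) they were more than 5 times above. Over all genes tested, NS-R replicates 1 and 2 stood on top in this way for 2362 (13.7%). Of the 883, 552 (62.5%) had no overlap, so NS-R replicate 3 also lay above every NTS-R library; this held for 356 of the 652 (54.6%). Scgb3a1, another airway secretoglobin, was at 0.173, 0.534 and 0.0806 CPM in NTS-R and at 488, 804 and 0.682 CPM in NS-R. Slc16a11, a monocarboxylate transporter, was at 1.04, 1.30 and 0.645 CPM in NTS-R and at 37.4, 34.5 and 2.999 CPM in NS-R. Akr1c18, which inactivates progesterone, was at 0.347, 0.229 and 0 CPM in NTS-R and at 8.93, 11.7 and 0.682 CPM in NS-R. For these 3 genes NS-R replicate 3 lay close to NTS-R. Lrrc71, Ngef and Gramd2 had the same pattern, with 3.48, 1.02 and 0.886 CPM in NS-R replicate 3. Others of the 15 lower genes were high in NS-R replicate 3 too. Esrp2, an epithelial splicing regulator, was at 2.60, 1.37 and 1.61 CPM in NTS-R and at 8.72, 6.70 and 8.31 CPM in NS-R. Plxdc1, known as a tumour endothelial marker, was at 1.16, 0.992 and 0.887 CPM in NTS-R and at 3.195, 2.83 and 2.93 CPM in NS-R. Tmem254a was at 5.90, 5.72 and 5.48 CPM in NTS-R and at 24.1, 32.6 and 14.2 CPM in NS-R. In the epithelial list 5 of 11 genes had an unadjusted p under 0.05, all lower, beside 5.11% of all genes, and Cdh1, the epithelial cadherin, was at 0.173, 0 and 0.242 CPM in NTS-R and at 22.4, 38.2 and 0.0682 CPM in NS-R.

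Donor diabetes could also be compared between Nlrp3 knockout and wild-type donors, since TS-R against WTS-R shares no library with NTS-R against NS-R. No gene had a different effect of diabetes at an FDR of 0.05 in the edgeR interaction test (0% of genes, lowest FDR 0.0823). With the replicate block that fit called 2 genes higher and 17 lower, DESeq2 called 95 and 991, and voom quality weights 621 and 1251. At an unadjusted p under 0.05 the effect was higher with knockout donors for 812 genes (4.70%) and lower for 2353 (13.6%). Over all genes the correlation of the log2 fold changes was -0.10 (Pearson) and -0.14 (Spearman), a description over genes, which are not independent. Of the 1099 genes with an unadjusted p under 0.05 in NTS-R against NS-R, 37.3% had the same sign in TS-R against WTS-R, against 45.0% of all genes.

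The genes with the lowest interaction FDR were Egr3 and Egr2. Egr3 was at 14.1, 35.4, 24.2 and 10.4 CPM in TS-R, against 5.84, 3.65 and 10.5 CPM in WTS-R, so TS-R lay mostly higher where NTS-R lay lower than NS-R (interaction log2 -5.63, edgeR FDR 0.0823). Egr2 was at 6.57, 10.1, 11.7 and 3.78 CPM in TS-R, against 1.22, 1.51 and 3.795 CPM in WTS-R (interaction log2 -5.29, edgeR FDR 0.0823). Jun did not separate TS-R from WTS-R, with 108, 135, 58.5 and 107 CPM in TS-R, against 79.4, 64.5 and 130 CPM in WTS-R (interaction log2 -2.13, edgeR FDR 0.115). Nr4a1 was at 154, 398, 93.2 and 263 CPM in TS-R, against 269, 169 and 373 CPM in WTS-R. For Jun, Nr4a1 and Sik1 the NS-R libraries lay above or near the top of the other 3 groups, and the NTS-R libraries near or below their bottom. The immediate early list had a median of 0.29 in TS-R against WTS-R. At an unadjusted interaction p under 0.05, the effect of diabetes was lower with knockout donors for 12 of its 17 members and higher for 0. The lower effect held for 13.6% of all genes. Fkbp5 was at 48.9, 44.5, 43.2 and 40.1 CPM in TS-R, against 39.96, 43.8 and 13.6 CPM in WTS-R, between NTS-R and NS-R apart from the last WTS-R library.

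Leukocyte lists had unlike medians in the 2 comparisons. For the T cell list the medians were 0.12 in NTS-R against NS-R and 4.94 in TS-R against WTS-R, and all 20 members had an unadjusted interaction p under 0.05. The B cell list had medians of 0.35 and 5.66 (15 of 17 members), the plasma cell list 0.02 and 3.37 (13 of 18), the neutrophil list -0.49 and 4.32 (10 of 11) and the cell cycle list -0.19 and 2.78 (17 of 18). In the inflammasome list the medians were -0.12 and 1.07, with 6 of 19 members. In each of these lists the effect of diabetes was lower with knockout donors for all such members, beside 13.6% of all genes. This concerns the difference between the 2 comparisons, not the level with knockout donors. Il1b was at 1.79, 4.08, 7.17 and 2.93 CPM in TS-R, against 0.513, 0.566 and 0.900 CPM in WTS-R, higher without overlap, whereas NTS-R lay lower than NS-R without overlap (interaction log2 -4.24, edgeR FDR 0.115). TS-R replicates 2, 3 and 4 held lymph node RNA, with Glycam1 at 66.9, 965 and 8.11 CPM, while it was at 0.0284 CPM in replicate 1, under 3 counts, and at most 0.0641 CPM in WTS-R. Its part in these differences was not tested.

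**Figure D5:**
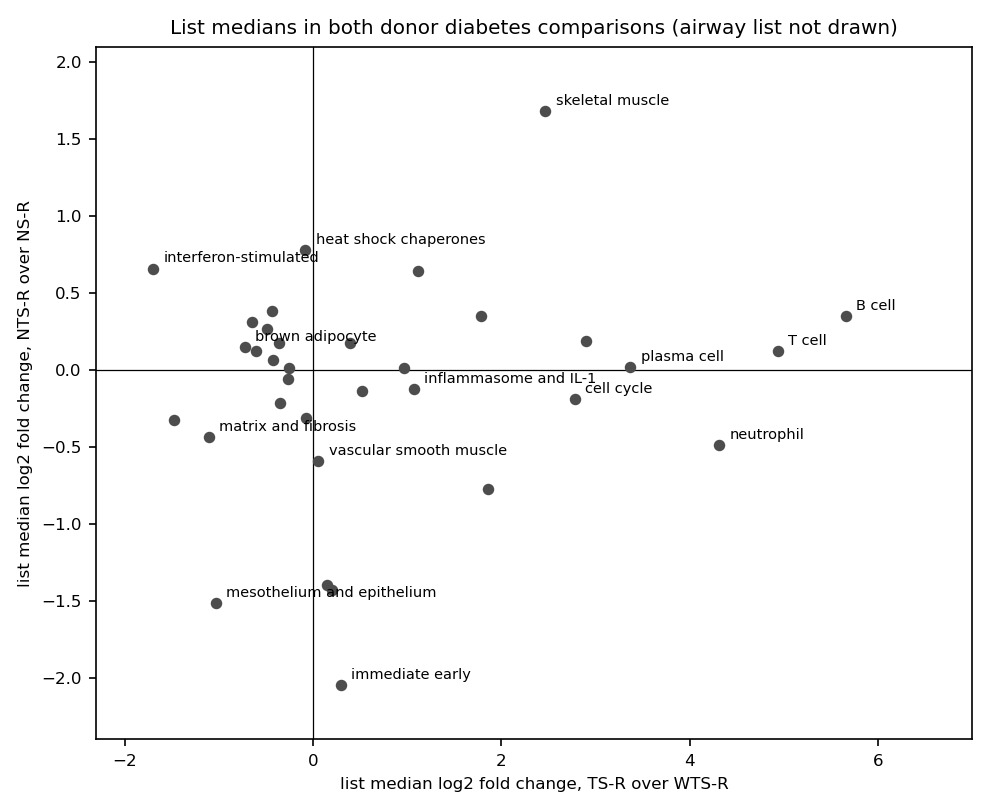
Median log2 fold change of each gene list with knockout donors (vertical axis, NTS-R over NS-R) against that with wild-type donors (horizontal axis, TS-R over WTS-R); each point is a list and the airway list, at -8.68 on the vertical axis, is not drawn. T cell, B cell and plasma cell lists lie far to the right and near 0 on the vertical axis, and the immediate early list lies at -2.05 on the vertical axis and 0.29 on the horizontal axis.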

How the data were processed

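Gene counts were deposited by the authors as whole numbers, with a column for each library. Per the submitters' processing notes the tools were HISAT2 and featureCounts. Not given in the sources used here: their versions, the build, the annotation and strandedness. Symbols were matched by identifier for 33302 genes and not for 711, and 21 symbols were shared. Counts of overlapping or near-identical genes can be split or shared.

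All 13 libraries entered 1 edgeR 4.0.16 quasi-likelihood fit in R 4.3.3 (TMM, filterByExpr, no block), which left 17270 genes, with the contrast NTS-R minus NS-R and Benjamini-Hochberg adjustment over all of them. The common dispersion gave a biological coefficient of variation of 0.389 (prior degrees of freedom 3.50). CPM uses TMM library sizes. A count of 0 allows up to 3 counts, and these limits cover counting error only. No replicates matched within sampling noise (lowest chi-square per degree of freedom 32.4). The steps were tested on simulated data.

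Named genes were Nlrp3, the 15 per direction with the smallest unadjusted p, no overlap and a mean CPM of at least 1, and per list the 2 most abundant members and the 2 with the smallest p. Other immediate early genes, Tsc22d3, Adipoq, Plin1, Casp1, Pycard, Cd3e, Cd79a and the tissue markers were added after their values were seen. The comparison and the 36 lists were chosen with earlier results of these data known, and lists are described without a set test. 1 gene of the 15 higher is not reported here.

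Replicate numbers come from the sample titles. Deviations from group means of same-numbered NTS-R and NS-R libraries correlated at 0.207, 0.100 and 0.220 over genes, and those of other pairs at -0.289 to 0.174. These ranges overlapped, so whether the numbers pair the samples was not settled. The main fit therefore had no block, and a replicate block was 1 of the 20 alternatives. The others were DESeq2 1.42.0, limma 3.58.1 voomWithQualityWeights, other size factors and filters, sets of libraries, leaving out each replicate, covariates for sex and clock level and, chosen after seeing the data, for airway level (Scgb1a1), NS-R replicates 1 and 2 left out, and only NTS-R and NS-R with NS-R replicate 3 left out. Promoter windows are from RefSeq, GRCm38.p6.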

Additional observations from a re-analysis of the deposited data

Results flagged for a closer look

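Some signals lay in genes that the low-count filter kept out of the test because too few libraries expressed them, 10 of which exceeded 100 CPM in a library, 9 of them highest in NS-R replicate 1 or 2. Bpifa1, an airway secretory protein, reached 5929 CPM, Scgb1a1 reached 4689 CPM and Scgb3a2, another club cell secretoglobin, reached 1008 CPM, all in NS-R replicate 2. In NTS-R these 3 genes were at no more than 0.52 CPM. Xist reached 530.3 CPM in NS-R replicate 3 and at most 0.403 CPM in NTS-R. The airway and sex differences within NS-R were not given by the labels, and their part in the comparison was not tested beyond the settings listed here.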

How the results depend on the processing

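The edgeR fit called 0 genes higher and 0 lower in NTS-R at an FDR of 0.05, with 216 and 883 at an unadjusted p under 0.05. The counts, higher and lower, were 4 and 204 with DESeq2, 0 and 12 with voom quality weights, 1 and 125 without a count filter, 1 and 4 with only the 6 libraries, 33 and 725 with only libraries without Xist, 1 and 131 with sex as a covariate, and 84 and 775 with only NTS-R and NS-R and NS-R replicate 3 left out (chosen after seeing the data). Leaving out 1 replicate of these groups gave 0 to 7 higher and 0 to 556 lower, with 7 and 556 without NS-R replicate 3 and 0 otherwise; without TS-R replicate 3 there were 0 and 1, Jun. RLE size factors, a stricter filter, the clock or airway covariate, and NS-R replicates 1 and 2 left out gave 0 and 0. For the interaction, also 0 and 0, the counts were 95 and 991 with DESeq2, 621 and 1251 with voom quality weights, 1 and 91 without a filter, 5 and 396 without Xist libraries, 0 and 21 with sex and 0 and 91 with the clock level as covariates. Leaving out 1 replicate gave 0 to 3 and 0 to 295, the highest without NS-R replicate 3, and 0 and 5 without TS-R replicate 3. The cause of these moves was not tested. With the replicate block the counts were 0 and 0 for NTS-R against NS-R and 2 and 17 for the interaction; the block changed no other count of calls.

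Fold changes of opposite sign were found for Nlrp3 (0.0844 with sex as a covariate) and for Fos (0.13 with the airway covariate, 0.12 with NS-R replicates 1 and 2 left out). The other genes given a fold change kept their sign in all settings that tested them. At 3 libraries a group, differences of weakly expressed genes such as Il6, Nlrp3 and Ptgs2 rest on few reads.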
